A study of Arabidopsis thaliana with 24 samples.

Results

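Leaf blades of 5-week-old Arabidopsis fed oxidized glutathione (GSSG) were compared with blades of the same age fed reduced glutathione (GSH), 2 arrays against 2 of the 24 arrays in the series. The 4 arrays were chosen by their titles, and every one of the 22746 probe sets that is not an Affymetrix control entered the comparison. All plants were wild type, accession Columbia-0, and grew 3 to a pot on vermiculite and soil with 16 h of light at 22 °C. Each pot stood in 25 ml of its solution, taken up by the soil, at weekly intervals between week 1 and week 5 after sowing. GSSG was given at 1 mM and GSH at 2 mM, so both groups received 2 mM in glutathione units and 6 mM in nitrogen. Companion groups of the same age had water, which is the control, or NH4NO3 at 3 mM, also 6 mM in nitrogen. The blades sampled were the second and the third from the top among leaves that had expanded fully. The same solutions were sampled as blades at 4 weeks and as whole aerial parts with the shoot apex at 3 weeks, again with 2 arrays for each group. The labels do not say whether the 2 replicates of a group came from separate pots, so the p-values below rest on a spread between samples that may be technical. In which form glutathione left the soil and reached the leaf is not given in the sources used here.

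Glutathione is a tripeptide of glutamate, cysteine and glycine. GSH carries a free thiol and serves plants as an electron donor and as a transport form of reduced sulfur. GSSG is a pair of GSH molecules joined by a disulfide bond, and the enzyme glutathione reductase turns it back into GSH with electrons from NADPH. The peptide also holds nitrogen, which soil microbes and plant peptidases can release. Leaves that run short of nitrogen typically make anthocyanins, lay down starch and lose transcripts of nitrate-induced genes.

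The comparison asked whether the redox form of the peptide made a difference when the amount was equal. Array signals are linear intensities that share 1 scale, with a trimmed mean of 500.05 on each of the 4 arrays, medians between 163 and 169 and 3' to 5' actin ratios between 2.65 and 3.11. Signals under 100 made up 42.8% to 43.6% of the probe sets of each array. RCA, which encodes Rubisco activase and was the 1 measured marker out of 6 for mesophyll, stood at 27477 and 31184 with GSSG and at 28473 and 30027 with GSH. The epidermal guard cell gene FAMA, 1 of 7 markers measured for that tissue, lay between 222 and 255 with GSSG and between 253 and 259 with GSH. The 2 of 5 root markers measured were dim, with sums between 47.4 and 84.1 with GSSG and between 27.5 and 47.7 with GSH. The meristem gene CLV3, 1 of 5, lay between 5.35 and 7.94 with GSSG and between 2.62 and 23.1 with GSH. None of the 4 flower and none of the 5 vascular markers was measured here, where measured means that a probe set carries that 1 gene in the annotation used, which leaves 8730 probe sets unnamed.

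No transcript passed the test between GSSG and GSH at 5 weeks once all probe sets were taken into account. Limma called 0 probe sets in either direction (0% of those tested at a Benjamini-Hochberg adjusted p under 0.05), against 893 at an unadjusted p under 0.05 (3.93%), of which 363 were higher with GSSG (1.6%) and 530 lower (2.33%). The smallest adjusted p was 0.0762, for a probe set unnamed here, 249327_at. Its signal was 311 and 347 with GSSG, 1092 and 670 with GSH, 84.9 and 93.8 with water and 1059 and 708 with NH4NO3. Both GSSG arrays lay above water and below both GSH arrays, a difference of -1.34 ± 0.21 (SE) in log2(signal + 16), the scale of every difference below. Without GSSG replicate 2 limma called 10 probe sets, 7 higher and 3 lower with GSSG, and without GSH replicate 2 it called 1.

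A missed threshold does not show that GSSG and GSH act alike, so the size of difference that the arrays still allow was read from the 95% confidence intervals of the same fit. Among the 13647 probe sets above the 40th percentile of mean signal, 11467 (84%) had an interval wholly within 1 log2 unit of 0, that is, within a doubling or a halving. Their median interval reached 0.492 to each side. Below that percentile 912 of 9099 probe sets (10%) were held within the same bounds, with a median reach of 1.095, so for most dim genes a doubling was not detectable. Estimates beyond 1 log2 unit were found for 117 of the brighter probe sets, 44 higher with GSSG and 73 lower. Over all probe sets the median difference was -0.01, with 47.9% of estimates higher and 52.1% lower with GSSG.

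**Figure D1:**
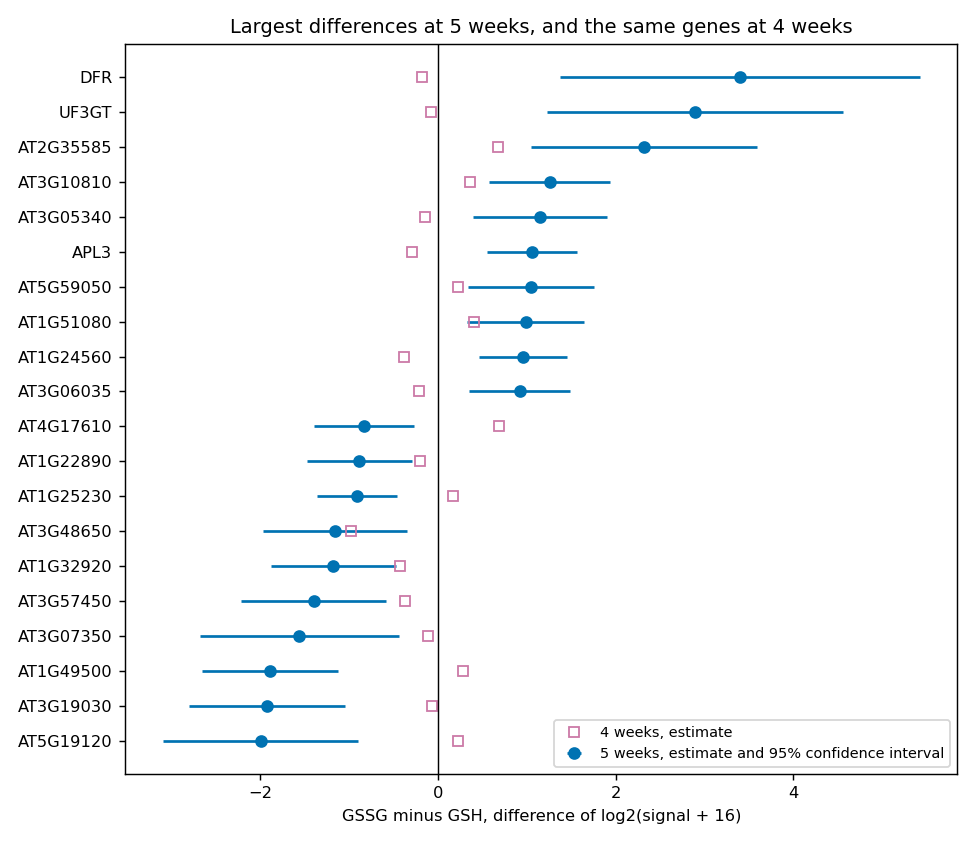
Difference between GSSG and GSH for the 20 named genes with the largest differences at 5 weeks (filled circles, with 95% confidence intervals as lines), in log2(signal + 16), and the estimate for the same genes at 4 weeks (open squares). At 5 weeks none of the 20 passed over all probe sets, and at 4 weeks the estimates ran from -0.98 to 0.69.

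Transcripts that nitrogen fertilizer raised were mostly lower with GSSG than with GSH. Limma called 359 probe sets higher (1.58% of those tested) and 145 lower (0.637%) with NH4NO3 than with water at 5 weeks. The differences that chose these 2 lists come from other arrays than the 4 compared. Their spread was estimated from all 24 arrays, the 4 compared included. The lists thus favour probe sets of small spread, which can raise their shares at an unadjusted p under 0.05 between GSSG and GSH. Of the 359 raised by NH4NO3, 300 (83.6%) had a lower estimate with GSSG than with GSH, beside 52.1% of all probe sets. Their median difference was -0.30. The share depended on GSH replicate 1, and without that array it was 60.4%. Both GSSG arrays lay below both GSH arrays for 160 of them (44.6%, beside 18.8% of all probe sets), and both lay above for 11 (3.06%, beside 16.2%). At an unadjusted p under 0.05, 78 were lower with GSSG (21.7%, beside 2.33% of all probe sets). In the other direction 1 was higher (0.279%, beside 1.6%).

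The 145 probe sets lowered by NH4NO3 were the mirror image. Of these, 121 (83.4%) had a higher estimate with GSSG, beside 47.9% of all probe sets, and their median difference was 0.30. Both GSSG arrays lay above both GSH arrays for 72 (49.7%, beside 16.2% of all probe sets) and below for 5 (3.45%, beside 18.8%). At an unadjusted p under 0.05, 26 were higher with GSSG (17.9%, beside 1.6% of all probe sets) and 1 was lower (0.69%, beside 2.33%).

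The array medians of these lists show where the difference lies. For the raised list, set against the mean of the 4 glutathione arrays, the GSSG arrays stood at -0.14 and -0.14, and the GSH arrays at 0.34 and -0.02. Water lay lower, at -0.73 and -1.0, and NH4NO3 higher, at 0.67 and 0.43. Both GSSG arrays lay between water and GSH, but GSH replicate 1 stood well apart from GSH replicate 2. Within replicate number 1 the median difference was -0.49 (312 of 359 lower with GSSG, 86.9%, beside 53.3% of all probe sets). Within replicate number 2 it was -0.13 (236 of 359, 65.7%, beside 49.9% of all probe sets). Without GSH replicate 1 the median was -0.09 and 217 of 359 (60.4%) were lower, and without GSH replicate 2 it was -0.50. For the lowered list the GSSG arrays stood at 0.18 and 0.06, the GSH arrays at -0.25 and -0.06, water at 0.62 and 0.74, and NH4NO3 at -0.50 and -0.35. Its median difference was 0.44 within replicate number 1 and 0.10 within replicate number 2.

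Each fed solution was also set against water, and these comparisons share the 2 water arrays. Limma called 48 probe sets higher (0.211%) and 2 lower (0.00879%) with GSSG than with water, and 231 higher (1.02%) and 107 lower (0.47%) with GSH, beside the 359 and 145 with NH4NO3. A gene past its threshold with GSH and not with GSSG is not thereby shown to differ between them, and the direct comparison called none. Over the raised list the median over water was 0.72 with GSSG and 1.06 with GSH, and over the lowered list it was -0.57 with GSSG and -0.80 with GSH. The same water arrays chose the lists, which enlarges these medians over water. The estimated difference between GSSG and GSH does not use the water arrays, but its spread is shared with the choice of the lists.

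**Figure D2:**
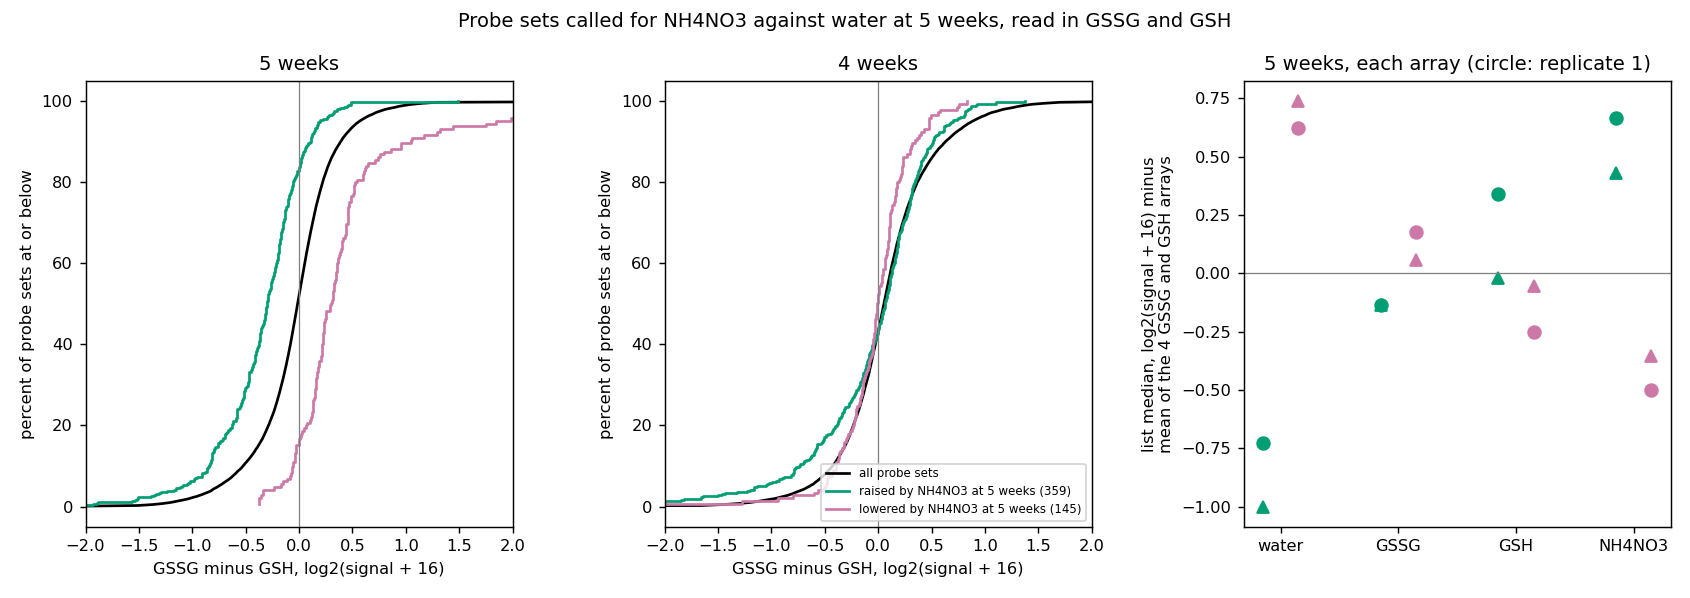
Left and middle, the percent of probe sets at or below each difference between GSSG and GSH, at 5 and at 4 weeks, for all probe sets and for those raised (359) or lowered (145) by NH4NO3 at 5 weeks, with medians of -0.30 and 0.30 at 5 weeks. Right, the median of each list on each 5-week array relative to the mean of the 4 glutathione arrays, where circles are replicate 1, triangles replicate 2, green the raised list and pink the lowered list, and GSH replicate 1 lies beyond GSH replicate 2 in both lists.

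The largest single differences toward GSH included genes with a low signal in the water control. By the rule for naming, both GSSG arrays lie on one side of both GSH arrays in every gene of this kind, so that fact carries no information. AT1G49500 had signals of 263 and 280 with GSSG and 1325 and 836 with GSH, beside 8.04 and 7.05 with water and 3813 and 4429 with NH4NO3. The arrays of the 4 groups did not overlap, in the order water, GSSG, GSH, NH4NO3. Against water it rose with GSSG (log2 difference 3.61, adjusted p = 0.000136), with GSH (5.50, adjusted p = 6.92e-08) and with NH4NO3 (7.45, adjusted p = 3.86e-10) in limma's fit. Between GSSG and GSH the difference was -1.89 ± 0.37 (SE; 95% confidence interval -2.66 to -1.12), with an adjusted p of 0.631.

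AT5G19120 gave 249 and 743 with GSSG, 1576 and 1996 with GSH, 38.2 and 32.4 with water, and 992 and 975 with NH4NO3. The GSSG arrays lay well apart from each other, but below every array of the other fed groups. The gene rose over water with GSSG (3.13, adjusted p = 0.01) and with GSH (5.13, adjusted p = 1.36e-05), and the difference between them was -2.0 ± 0.53 (interval -3.10 to -0.90, adjusted p = 0.96). AT3G19030 gave 169 and 242 with GSSG, 808 and 821 with GSH, 127 and 49.8 with water, and 802 and 604 with NH4NO3. The GSH and NH4NO3 arrays lay between 604 and 821 and both GSSG arrays stood nearer to water, a difference of -1.93 ± 0.42 (interval -2.81 to -1.04, adjusted p = 0.769).

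AT3G57450 had 799 and 1066 with GSSG and 2791 and 2174 with GSH, while water gave 862 and 280 and NH4NO3 1858 and 893. Both GSH arrays lay above the other 6 arrays of that age (difference -1.40 ± 0.39). AT1G25230 had 548 and 773 with GSSG, 1413 and 1084 with GSH, 405 and 298 with water, and 1279 and 992 with NH4NO3. Its GSSG arrays lay between water and the other fed groups (difference -0.91 ± 0.21, adjusted p = 0.85). The other 5 of the 10 genes named for the largest negative differences were AT3G07350 (-1.56), AT1G32920 (-1.18), AT3G48650 (-1.16), AT1G22890 (-0.89) and AT4G17610 (-0.83). Of the 10 genes, 9 had a GSSG mean between those of water and GSH, and 4 belong to the probe sets raised by NH4NO3. A total of 20 genes met the rule for naming in this direction and 19 in the other, and none of either passed over all probe sets.

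**Figure D3:**
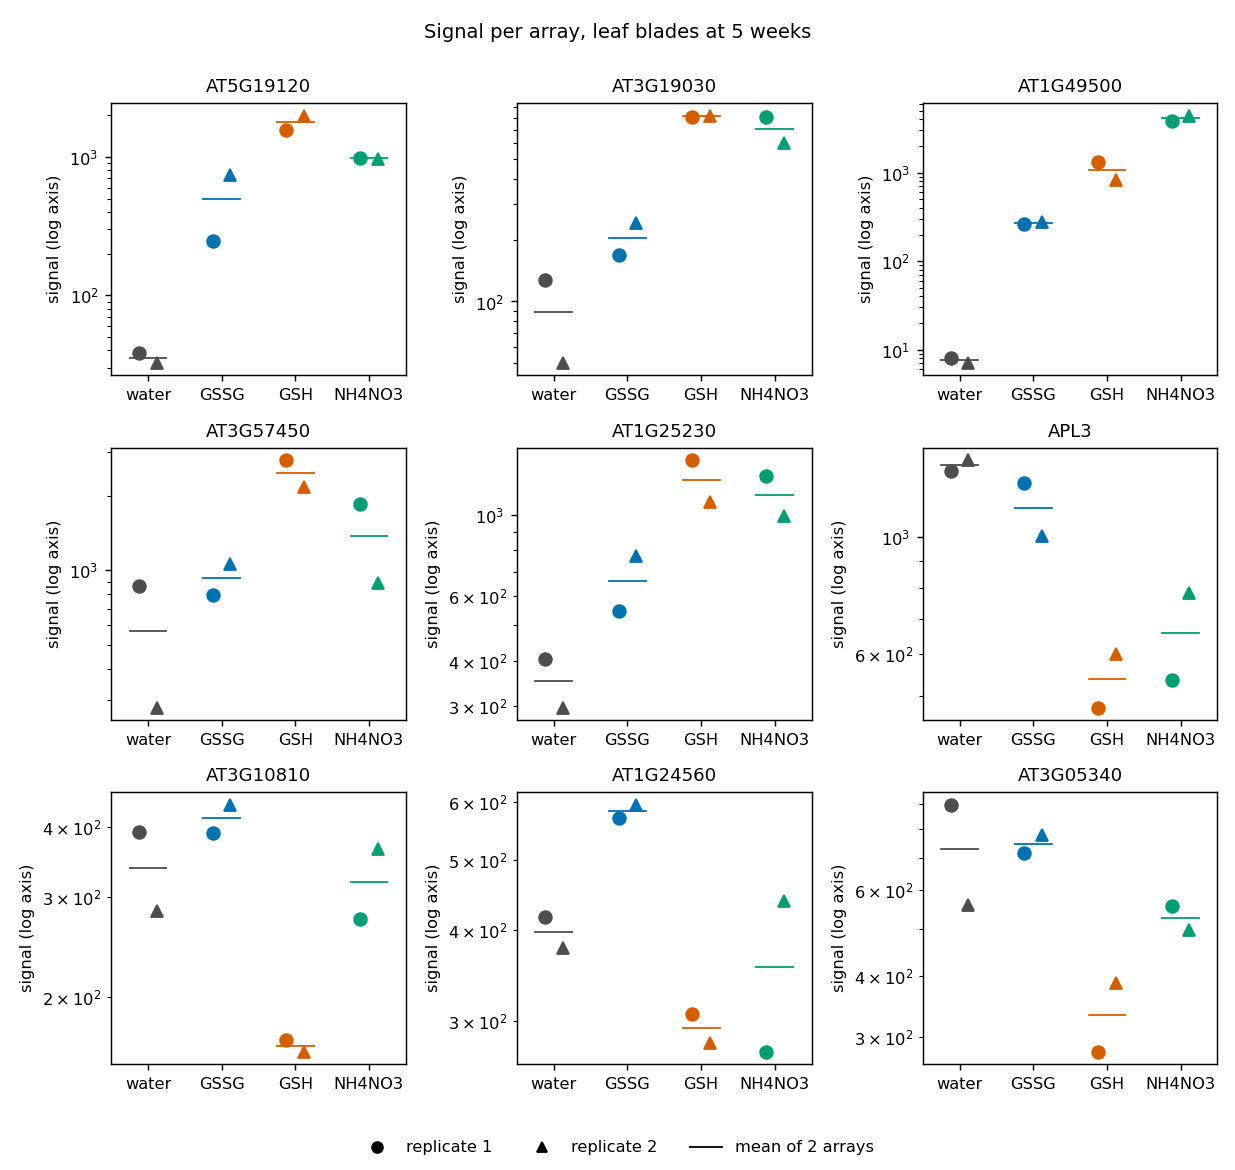
Signal on each 5-week array (log axis) for 5 genes lower and 4 genes higher with GSSG than with GSH, by watering, with the mean of 2 arrays as a line. In each of the 9 panels both GSSG arrays lie on one side of both GSH arrays, and AT1G49500 runs from 7.05 on a water array to 4429 on an NH4NO3 array.

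Toward GSSG, a gene of starch synthesis and several loci without a symbol were among the largest differences. APL3, a large subunit of ADP-glucose pyrophosphorylase, the enzyme that commits carbon to starch, gave 1269 and 1007 with GSSG and 475 and 601 with GSH. Water gave 1337 and 1401, and NH4NO3 537 and 782. The GSSG arrays lay close below water and the GSH arrays close to those of NH4NO3, a difference of 1.06 ± 0.24 (interval 0.55 to 1.57, adjusted p = 0.85). In limma's fit against water, APL3 differed by -1.33 with GSH (adjusted p = 0.00643) and by -0.27 with GSSG (adjusted p = 0.896). These 2 results are no test between GSSG and GSH. SWEET11, a sucrose exporter of the phloem and the other measured gene of the starch and sugar list, was between 10962 and 12749 on the 4 arrays and differed by -0.05 ± 0.29.

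AT3G10810 gave 390 and 438 with GSSG and 168 and 160 with GSH, against 391 and 284 with water and 275 and 365 with NH4NO3. In this gene the GSH arrays were the ones that stood below all others (difference 1.26 ± 0.33). AT1G24560 gave 570 and 596 with GSSG, above each of the other 6 arrays of that age, and 306 and 279 with GSH (difference 0.96 ± 0.24, adjusted p = 0.85). AT3G05340 gave 715 and 779 with GSSG and 279 and 386 with GSH, the latter lowest of all (difference 1.15 ± 0.36). The remaining names were AT2G35585 (2.32 ± 0.61, with 6.41 and 22.9 on the GSH arrays), AT5G59050 (1.05), AT1G51080 (0.99) and AT3G06035 (0.92), and 2 anthocyanin genes described next. Of the 10 largest positive differences, 5 had a GSSG mean between water and GSH and 4 belong to the probe sets lowered by NH4NO3.

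The late anthocyanin genes, which make and decorate the red pigment of stressed leaves, held the 2 largest of the named differences, and 1 of the GSSG arrays carried them. DFR, dihydroflavonol reductase, gave 2174 and 50 with GSSG and 43.2 and 6.01 with GSH. Water gave 3171 and 2104, and NH4NO3 67.7 and 311. GSSG replicate 1 was at the level of water, and GSSG replicate 2 was close to the GSH arrays, so that the difference of 3.40 ± 0.97 (interval 1.37 to 5.42) rests on replicate 1. UF3GT, a glycosyltransferase that adds a sugar to anthocyanins, gave 820 and 57.9 with GSSG, 35.4 and 5.77 with GSH, 1828 and 1081 with water, and 86.5 and 146 with NH4NO3. The split between the GSSG arrays was the same in kind, and the difference was 2.89 ± 0.80 (adjusted p = 0.987).

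AT4G14090, on the late anthocyanin list as the glucosyltransferase UGT75C1, gave 1340 and 88.1 with GSSG and 106 and 73.8 with GSH, and the groups overlapped (difference 1.84 ± 0.74). The malonyltransferase gene AT5MAT gave 182 and 33.7 with GSSG and 53.3 and 3.14 with GSH, again with overlap (1.44 ± 0.65). UGT78D2, a flavonoid glucosyltransferase, gave 520 and 210 with GSSG and 264 and 220 with GSH (0.44 ± 0.28). These 5 genes are the measured part of a list of 16. All 5 are also among the probe sets lowered by NH4NO3, so they are not separate from that list's result. All 5 estimates were higher with GSSG, with a median of 1.84 beside -0.01 for all probe sets, 4 had an unadjusted p under 0.05 (beside 1.6% of all probe sets in that direction), and in 2 the groups did not overlap (beside 16.2%). None passed over all probe sets. Without GSSG replicate 1 the list median was 0.45 and DFR differed by 0.87. Without GSSG replicate 2 the median was 3.69, and DFR (5.92, adjusted p = 0.000471) and UF3GT (4.64, adjusted p = 0.0114) passed, with the lone GSSG array assumed to vary as the other groups do.

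Among the brighter probe sets the GSSG arrays were not a poor pair. Over the 13647 probe sets above the 40th percentile of mean signal, their log2 values differed with an SD of 0.358. That SD was 0.399 for GSH, 0.432 for water and 0.45 for NH4NO3. Of these probe sets 255 lay over 1 log2 unit apart between the GSSG arrays, beside 387, 461 and 514. DFR, AT4G14090 and UF3GT were 5.05, 3.70 and 3.5 log2 units apart between the GSSG arrays. The earlier enzymes of the flavonoid pathway, 3 of 15 measured, had differences of 0.26 to 0.60, and each interval included 0. In whole blades, fewer cells that make a transcript and less transcript per cell cannot be told apart.

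**Figure D4:**
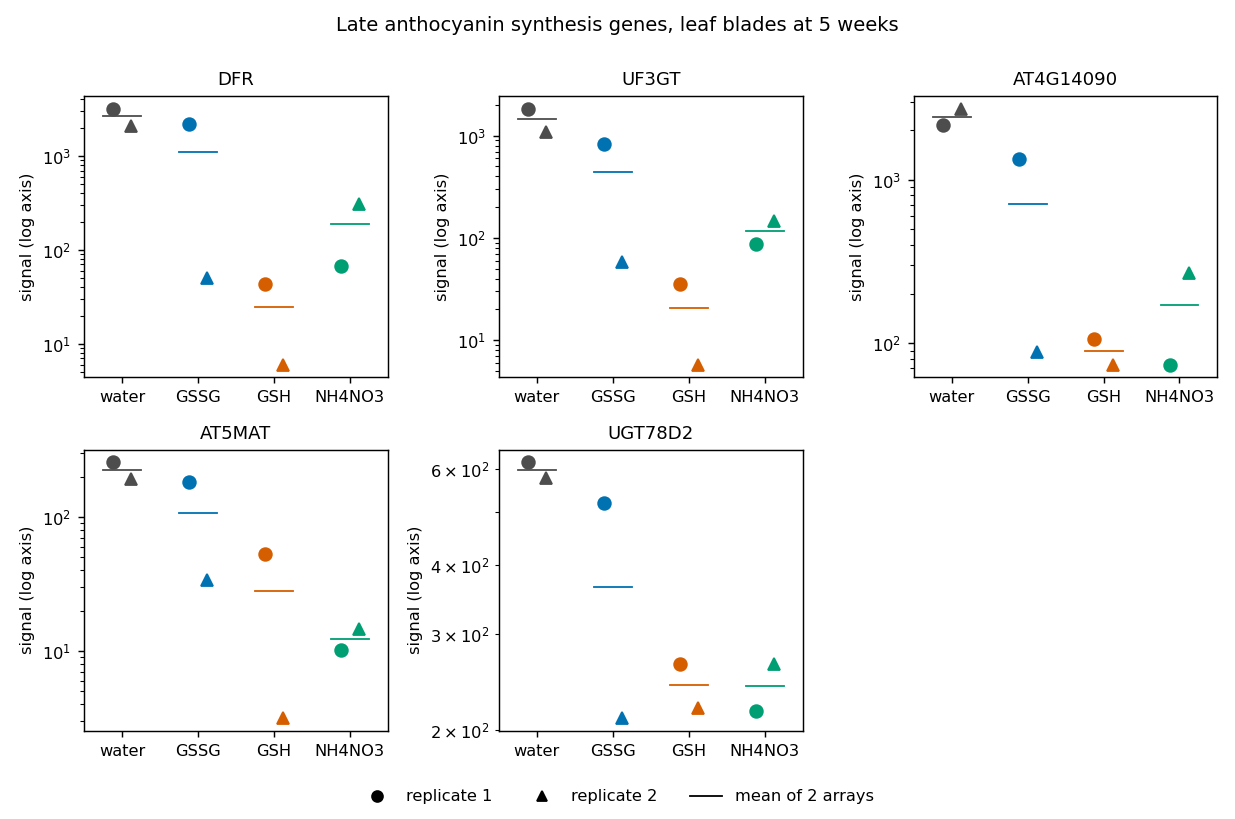
Signal on each 5-week array (log axis) for the 5 measured late anthocyanin genes by watering, with the mean of 2 arrays as a line. In all 5 panels GSSG replicate 1 (circle) lies nearer to the water arrays and GSSG replicate 2 (triangle) nearer to the GSH arrays, as for DFR with 2174 and 50.

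Of the genes that respond to or regulate nitrate, some were lower with GSSG and some were higher. The list holds 18 regulators, 6 of them measured, and for the HHO repressors of nitrate uptake and for NRG2 the names come from the list. AT1G25550 (HHO3) gave 354 and 533 with GSSG and 837 and 721 with GSH, against 163 and 157 with water and 1353 and 1206 with NH4NO3. The 4 groups did not overlap, in the order water, GSSG, GSH, NH4NO3, and GSSG and GSH differed by -0.82 ± 0.25. AT1G68670 (HHO2) differed by -0.79 ± 0.32 and AT4G37180 (HHO5) by -0.63 ± 0.25, both with GSSG arrays below GSH arrays. HHO3, HHO2 and HHO5 are themselves among the probe sets raised by NH4NO3, so they do not add to that list's result. AT3G25790 (HHO1), dim on all 4 arrays with at most 17.1, differed by 0.41 ± 0.45. Of the 6, 4 were lower with GSSG, beside 52.1% of all probe sets, and 2 were higher, with a median of -0.36. In 3 both GSSG arrays lay below both GSH arrays, beside 18.8% of all probe sets. Of 31 genes of nitrate and ammonium use, the nitrate transporter NRT2.5 and AT2G26690 (NRT1.4 in the list) were measured, with differences of 0.11 ± 0.50 and -0.38 ± 0.28.

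Cell wall loosening genes were lower with GSSG in 5 of 8 measured, beside 52.1% of all probe sets, with a median of -0.32. EXPA8, an expansin that lets growing walls yield and one of the genes most raised by NH4NO3, gave 290 and 349 with GSSG and 1141 and 523 with GSH (difference -1.24 ± 0.49), beside 130 and 27.5 with water and 1286 and 348 with NH4NO3. Both GSSG arrays lay above water and below GSH. Another expansin, EXPA4, went the other way, with 683 and 507 against 378 and 397 (0.58 ± 0.23), and AT3G08030 gave 523 and 711 against 1313 and 759 (-0.70 ± 0.29). At 4 weeks the same 8 genes had a median of 0.73.

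The few measured enzymes of glutathione and ascorbate redox differed little, but they are 5 of a list of 33. Most enzymes that handle glutathione itself, GSH1 and GSH2 among them, were not measured. GR1, a glutathione reductase, gave 1052 and 1012 with GSSG and 837 and 921 with GSH, beside 1278 and 1416 with water. It fell with GSH against water (-0.61, adjusted p = 0.0458), and with GSSG the difference from water was -0.38 (adjusted p = 0.588). Both GSSG arrays lay above both GSH arrays, by 0.23 ± 0.15 with an interval of -0.08 to 0.54, so an increase of more than 0.54 log2 units with GSSG lies outside it. The stromal ascorbate peroxidase SAPX (0.15 ± 0.19), the thylakoid ascorbate peroxidase TAPX (-0.18 ± 0.20) and the monodehydroascorbate reductase ATMDAR2 (0.19 ± 0.28) had intervals within 1 log2 unit. That was so for all 5 measured of the 33 redox enzymes, whose median was 0.15. In sulfate assimilation, where the ATP sulfurylases APS3 and APS4 and the sulfite reductase SIR were the 3 of 23 measured, differences were -0.07 ± 0.22, 0.06 ± 0.16 and 0.05 ± 0.17, and all intervals lay within 1 log2 unit. The sulfur deficiency genes were AT1G04770 (SDI2 in the list), with 695 and 945 against 498 and 603 (0.55 ± 0.30), and BGLU28 (-0.74 ± 0.55), which lay between 3.02 and 30.5 on the 4 arrays.

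Glutathione S-transferases of the tau and phi classes, which join glutathione to other molecules, were lower with GSSG in 9 of 12 measured. That compares with 52.1% of all probe sets. Their median was -0.24, and none had a p under 0.05 in limma's fit. GSTU27 gave 1966 and 1877 with GSSG and 3005 and 2250 with GSH (-0.43 ± 0.25). GSTU20 gave 8872 and 4289 against 5416 and 3348 (0.53 ± 0.31), with overlapping groups. CC-type glutaredoxins, small plant oxidoreductases that use glutathione, were the best covered family, with 17 of 20 measured. Of these 9 were higher and 8 lower with GSSG, from -0.76 to 0.78 with a median of 0.16. In 6 both GSSG arrays lay above both GSH arrays (beside 16.2% of all probe sets) and in 1 below (beside 18.8%). AT2G47880 gave 2130 and 2864 with GSSG and 1130 and 1865 with GSH, beside 2986 and 3512 with water and 1079 and 1031 with NH4NO3 (0.76 ± 0.57). AT5G11930 gave 433 and 253 against 240 and 225, beside 652 and 567 with water (0.49 ± 0.34).

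**Figure D5:**
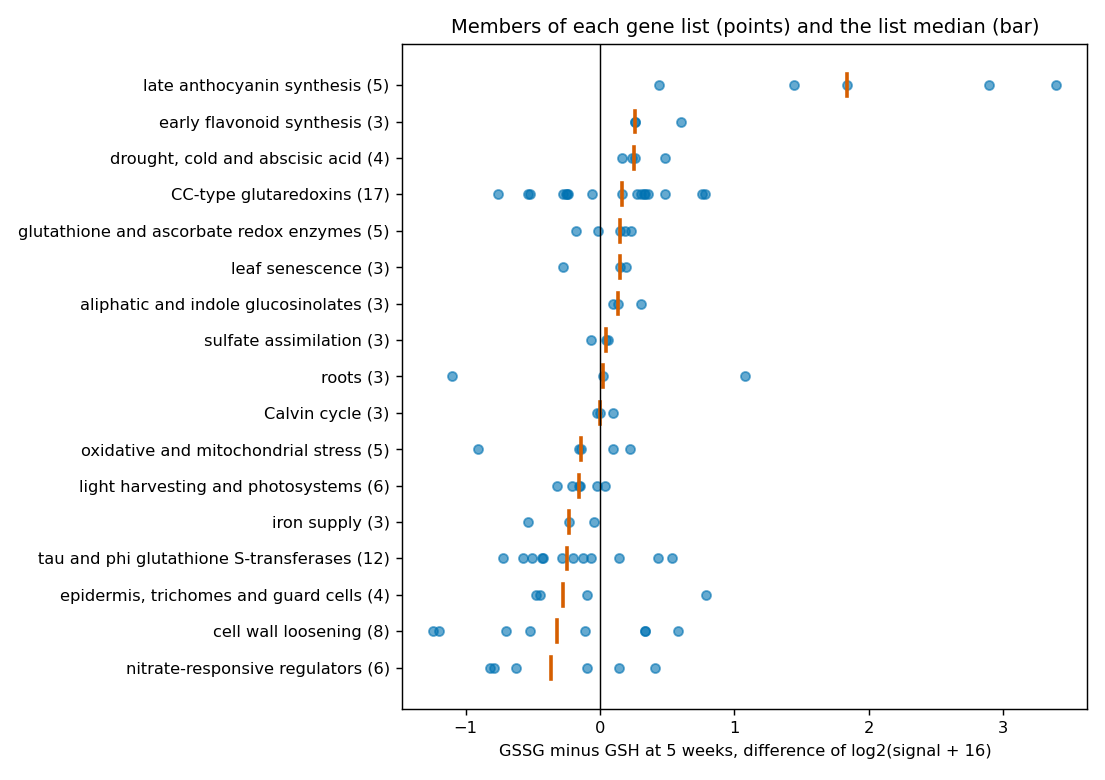
Difference between GSSG and GSH at 5 weeks for each measured member (points) of the gene lists with at least 3 measured members, and the list median (bar), in log2(signal + 16), with the number of measured members in brackets. Late anthocyanin synthesis lies apart with a median of 1.84, and the redox, sulfate and Calvin cycle lists lie close to 0.

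Photosynthesis genes had narrow intervals. The 6 measured of 35 light-harvesting and photosystem genes had a median of -0.15, from -0.32 for LHCB4.2, an antenna protein of photosystem II, to 0.04, and all 6 intervals lay within 1 log2 unit. The Calvin cycle genes PRK, SBPASE and RCA differed by 0.10, -0.02 and 0.00, also with all intervals within 1. For the 69 genes of the chloroplast genome, a list added after the data were seen, the median was 0.04, with 40 higher and 29 lower and 61 intervals within 1. The 3 measured glucosinolate genes, among them BCAT4 (0.31 ± 0.27), which starts the methionine side chain, were held within 1 as well.

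Hormone and stress genes were fewer and more variable. ARR15, a type-A response regulator that cytokinin induces, gave 47.7 and 27.0 with GSSG and 3.5 and 10.6 with GSH (1.2 ± 0.52), and the related RR16 gave 609 and 1431 against 478 and 666 (0.71 ± 0.45). The cold and drought genes COR15A, COR15B, COR47 and LTI30 had differences of 0.17 to 0.49, and each interval included 0. PDF1.2, a jasmonate-induced defensin, gave 714 and 709 with GSSG and 784 and 2400 with GSH (-0.93 ± 0.76), so its spread lay within the GSH pair. The zinc finger gene STZ, induced by stress, gave 1217 and 1698 against 2179 and 3391 (-0.91 ± 0.59). The senescence genes WRKY53, WRKY6 and SAG101 differed by 0.20, -0.28 and 0.15. Over the lists of named pathways and markers, 108 members were measured and 0 were called. In limma's fit 14 (13%) had an unadjusted p under 0.05, beside 3.93% of all probe sets. Of the 14, 4 were late anthocyanin genes, 4 cell wall genes and 3 nitrate regulators. The lists were chosen with earlier results of these data known, so these shares are no test of the pathways.

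A week earlier 2 probe sets, both unnamed here, were lower with GSSG than with GSH past the threshold. Limma called 254265_s_at (-2.23) and 256431_s_at (-1.85 ± 0.28, adjusted p = 0.0298), 0.00879% of those tested, and 1540 (6.77%) had an unadjusted p under 0.05. The count at 4 weeks was 0 without either replicate 2 array of that age, 23 without GSSG replicate 1 and 32 without GSH replicate 1. AT1G49500 gave 2686 and 2439 with GSSG and 1990 and 2209 with GSH at that age, and the water arrays were at 3427 and 7568. AT5G19120 gave 1046 and 2952 against 824 and 2750. DFR was between 5.82 and 35.6 on these 4 arrays, and on the 4-week water arrays it was 33.6 and 32.0. Of the 10 genes named as lower at 5 weeks 6 had the same sign at 4 weeks (median -0.09), and of the 10 named as higher 4 did (median -0.11). For the list raised by NH4NO3 at 5 weeks the median difference at 4 weeks was 0.07, with 157 of 359 lower with GSSG (43.7%, beside 43.2% of all probe sets). At an unadjusted p under 0.05 in limma's fit, 45 of the 359 were lower with GSSG (12.5%, beside 2.91% of all probe sets). In the other direction 13 were higher (3.62%, beside 3.86%). Both probe sets called at 4 weeks belong to this raised list. For the lowered list the median at 4 weeks was -0.01.

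The change in the difference between the harvests was tested as an interaction, and limma called 0 probe sets, against 1373 (6.04%) at an unadjusted p under 0.05 and a smallest adjusted p of 0.242. For AT1G49500 the interaction was -2.18 ± 0.52 (adjusted p = 0.605), and for DFR it was 3.57 ± 1.37 (adjusted p = 0.767). In aerial parts at 3 weeks limma called 0 probe sets, against 660 (2.9%) at an unadjusted p under 0.05, and the medians over the raised and lowered lists were 0.00 and 0.02. DFR was on in those younger plants, between 621 and 845 with either form of glutathione, a difference of -0.23 ± 0.97.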

How the data were processed

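The authors deposited 1 intensity per probe set and array, made with Affymetrix Expression Console per the submitters' processing notes; its version and summary method are not stated. The deposited intensity values are linear and share a trimmed mean of 500, with a lowest signal of 1, so no normalization was added. Biotin-labelled RNA was prepared from 100 ng of total RNA per the labels' protocols. Groups and replicate numbers came from the sample titles, and the number of arrays, 2 a group, limits the precision.

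All differences are of log2(signal + 16). A fold change on this log2(value + 16) scale is smaller than the true one for dim genes. A model with 1 mean for each of 12 groups was fitted to all 24 arrays with limma 3.58.1 in R 4.3.3, with variances moderated along an intensity trend (12 residual degrees of freedom, with a prior of 7.39). P-values of a contrast were adjusted by Benjamini-Hochberg over 22746 probe sets. The 64 control probe sets were left out. The script was tested on simulated data. Tables and plots used Python 3.11.15 with numpy 2.4.6, pandas 2.3.3 and matplotlib 3.10.9.

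Of the probe sets 13513 carried 1 gene, 503 several and 8730 none in the platform annotation given here, and 13436 of those with 1 gene matched the TAIR10.1 reference by gene identifier; the others kept the platform's name. No coordinates or sequences were used. Genes were named where a probe set had 1 gene, the higher group mean was above the 40th percentile (a signal of 106.737) and both GSSG arrays lay beyond both GSH arrays. Since none passed, the 10 largest differences each way with an unadjusted p under 0.01 are given, with up to 4 members of each gene list by smallest p and the 5 largest NH4NO3 changes each way. The brightest probe set stood for a gene. The comparison, the gene lists (31, with 598 members, 26 with a measured member) and the tests were chosen with earlier results of these data known. The NH4NO3 lists were described by counts, with no test.

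Alternatives were quantile normalization, centred array medians, a filter at the 40th percentile, pseudocounts of 1 and 64, a robust prior, a prior without trend, a replicate block, fewer arrays in the fit and leaving out each array in turn.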

Additional observations from a re-analysis of the deposited data

Results flagged for a closer look

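The median difference between GSSG and GSH over the 359 probe sets raised by NH4NO3 at 5 weeks was -0.30 at 5 weeks and 0.0652 at 4 weeks, so the harvests lie on opposite sides of 0. The median over all probe sets was -0.01 at 5 weeks and 0.05 at 4 weeks, and within replicate numbers the list gave -0.49 and -0.13 at 5 weeks and 0.06 and 0.03 at 4 weeks. The difference between the harvests was not tested for the list. Groups of 2 arrays are too small for a test of outlying samples.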

How the results depend on the processing

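The count of 0 probe sets called at 5 weeks became 1 with centred array medians and 1 with a robust prior, both lower with GSSG, and 0 to 10 when an array was left out (10 without GSSG replicate 2, of which 7 were higher). At 4 weeks the count of 2 became 4 with quantile normalization, 6 with a pseudocount of 1, 0 without trend, and 0 to 32 with an array left out. At 3 weeks 1 was called with a pseudocount of 1. The interaction called 0 to 2 (2 without either 5-week replicate 2 array or 4-week GSSG replicate 1), and the gene lists 0 to 3, with an array left out. Where an arm was left with 1 array, its spread was taken from the other groups. The median over probe sets raised by NH4NO3 ran from -0.502 to -0.0921 with an array left out, and over those lowered from 0.19 to 0.41. Within replicate number 1, an alternative added after the data were seen, the medians were -0.487 and 0.4375, and within replicate number 2 the second was 0.1036. Both medians kept their sign under every alternative run, while the lists held 120 to 696 and 32 to 384 probe sets.

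Replicate numbers are shared between groups, but the labels do not say what they mark. Deviations of same-numbered GSSG and GSH arrays at 5 weeks had a correlation of 0.24. With the NH4NO3 arrays of that age the correlation was 0.38 for GSH and 0.11 for GSSG. With the water arrays it was 0.24 for GSH and 0.18 for GSSG. With a replicate block limma called 5 probe sets, all lower with GSSG, among them AT5G19120 (adjusted p = 0.024) and AT1G49500 (adjusted p = 0.0448), and the median over the 384 probe sets then lowered by NH4NO3 was 0.18. The signal itself limits most dim genes, for which a doubling was not detectable.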

Other observations

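Transcripts that differed between 4 and 5 weeks in water-fed blades were read in the GSSG and GSH arrays. This description was added after the data were seen. Limma called 1111 probe sets higher in water blades at 5 weeks than at 4 weeks. Of these, 800 (72%, beside 47.9% of all probe sets) were higher with GSSG than with GSH at 5 weeks, with a median of 0.12. Of 1310 called lower, 968 (73.9%, beside 52.1%) were lower with GSSG, with a median of -0.16. The median over all probe sets was -0.01. Within replicate number 1 the medians were 0.22 and -0.34, and within replicate number 2 they were 0.02 and 0.01, so the pattern was carried by replicate number 1. At 4 weeks the medians were -0.10 and 0.15, beside 0.05 for all probe sets. The water arrays that chose these lists are not among the arrays read, but the spread used in the choice came from all 24 arrays.

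Another 2 genes are given as values. AT5G03350, one of those most raised by NH4NO3 (4224 and 5946, beside 107 and 12.24 with water), gave 291 and 304 with GSSG and 1527 and 416 with GSH at 5 weeks, a difference of -1.38 ± 0.62. At 4 weeks, when all groups were high, it differed by -1.46 ± 0.62. AT5G38710, picked after its values were seen, lay apart between the GSSG arrays, with 765 and 154, beside 1040 and 788 with water and 195 and 271 with GSH.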
